A study of Mus musculus with 6 samples.

Results

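The histone genes are the genes for the proteins around which DNA is wound. They were chosen by gene name, as every row of the expression table whose name begins with a histone family symbol (such as H1f, H2ac, H2bc, H3c, H4c, H2az, H3f or Macroh2a), which took 77 of 23060 rows. By their names, 63 were replication-dependent genes, 9 were variant or replacement genes and 5 were germline genes. RNA came from mouse cultures labelled HL-1, wild type and of heart origin, in 3 control and 3 tachypaced libraries, all grown in the same norepinephrine-containing medium. HL-1 is an atrial cardiomyocyte line descended from a tumour that a viral large T antigen, driven by an atrial promoter, caused in a transgenic mouse. Tachypacing is rapid electrical stimulation, a culture model of fast atrial rates. The labels do not state how fast or for how long the cells were paced. They do not state either whether the replicates were separate cultures, so p-values here reflect the spread among these 6 libraries, and that spread may be technical. The family was selected on account of earlier results of the tachypaced against control contrast. Its differences in that contrast are therefore a description, with p-values quoted from the model of the whole table and not as support.

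Expression is in FPKM, fragments scaled to transcript length and to the library's mapped fragments. FPKM summed to between 411050 and 432244 per library, and depth is unknown. The cell type markers did not match the label. The 14 cardiomyocyte markers summed to 3.22 to 4.02 FPKM in the controls and 3.73 to 4.02 after tachypacing. Nearly all of this was Tnni3, at a mean of 3.40 FPKM over the 6 libraries. Myh6, Myl7, Actc1, Nppb, Nkx2-5, Gata4 and Pln were listed at 0 in all 6. The 10 macrophage markers, carried by Cd68, Lyz2 and Tyrobp, with Fcgr1 at a mean of 0.254 FPKM, summed to 1190 to 1332 FPKM in the controls and 1467 to 1627 after tachypacing. Markers of fibroblasts, endothelium, smooth muscle, T cells, B cells, neutrophils and erythroid cells summed to at most 1.93 FPKM each. Mitochondrial genes held 7.91% to 8.42% of all FPKM in the controls and 9.001% to 9.72% after tachypacing.

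Replication-dependent histones are made in S phase, when new DNA has to be packaged. Their mRNAs are as a rule unspliced and end just past a short stem-loop that the stem-loop binding protein Slbp holds, in place of a poly(A) tail. Variant histones such as H3.3, H2A.Z and macroH2A, and the linker H1.0, come from ordinary polyadenylated mRNAs and are supplied outside S phase too, H1.0 most of all in cells that divide little. The libraries were made with an mRNA kit, and how far it captured mRNA without a tail was not tested. In bulk RNA, fewer cells that make a transcript and less of it per cell cannot be told apart.

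The stem-loop was looked for in the GENCODE M21 transcript models on GRCm38, downstream of the coding sequence, as a stem of 6 bases that begins with GG, a loop of 4 bases that begins with T, and the reverse complement of the stem. It was found in 46 of the 77 genes and in 252 of 22527 coding genes (1.12%). Among the 63 replication-dependent genes 44 held it, and 34 of these had the loop TTTC. A model annotated only to about the end of the coding sequence leaves no room for it. A gene without a hit may therefore have the stem-loop past its annotated end. The stem GGCTCT was found in 33 genes, none of them an H4 gene. The stems GGCCCT and GGTCCT were found in 11 and 2 genes, all H4 genes except the variant H2ax. The sites below, 30 bases each with the stem-loop in capitals, belong to the genes that the results turn on, followed by an H2B, an H4 and the variant gene that share the element.
H1f2: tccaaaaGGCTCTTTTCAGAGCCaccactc
H3c14: ccacaaaGGCTCTTTTCAGAGCCaccacag
H3c15: ccacaaaGGCTCTTTTCAGAGCCaccacag
H2ac18: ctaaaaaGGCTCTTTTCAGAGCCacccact
H2bc12: caccaaaGGCTCTTTTAAGAGCCactaaac
H4c9: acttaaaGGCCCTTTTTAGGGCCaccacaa
H2ax: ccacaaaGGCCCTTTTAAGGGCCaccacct
H1f2 has it at chr13:23739505-23739534 (+ strand), H3c14 at chr3:96247320-96247349 (+) and H3c15 at chr3:96238478-96238507 (-). In H2ac18 it lies at chr3:96246025-96246054 (+), in H2bc12 at chr13:22036293-22036322 (+), in H4c9 at chr13:22040959-22040988 (-) and in H2ax at chr9:44335233-44335262 (+). H3c14 and H3c15 carry the same 30 letters. How far the annotated transcript runs on past the last base of the stem-loop differed widely, at 1167 bases for H3c14, 840 for H1f2, 822 for H2ax, 377 for H3c15 and 330 for H4c9, against 35 for H2ac18 and 30 for H2bc12.

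The variant genes had the higher listed levels. FPKM is per length, but a level set against that of another gene also depends on how well the kit captured each mRNA and on how shared reads were divided, neither of which was tested. The variant and replacement genes summed to 744 ± 27.5 FPKM in control libraries (mean ± SD, n = 3, as for all values with ± below), and the 63 replication-dependent genes to 217 ± 38.8. The highest were the H2A.Z gene H2az1, at a mean of 217 FPKM over the 6 libraries, the H3.3 gene H3f3b (207), the linker H1.0 gene H1f0 (186) and the other H3.3 gene H3f3a (128). The highest replication-dependent gene was the linker H1.2 gene H1f2 at 72.0 FPKM, which alone made up 28.5% of that class. Together with the H2A genes H2ac18 (32.7) and H2ac19 (21.9) it made up 50.1%, and the 8 highest genes made up 73.1%.

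A mean of at least 1 FPKM, the minimum for testing, was reached by 35 genes, 27 replication-dependent and 8 variant. The other 36 replication-dependent genes had means from 0.0147 to 0.955 FPKM with a median of 0.541, so the gene just below the minimum was H2ac7 (0.955) and the gene just above it H2ac8 (1.03). Of these 36, 22 had a higher mean in the tachypaced libraries. The macroH2A2 gene Macroh2a2 was at 0.0936 FPKM. All 5 germline genes were low, the highest being the testis H2B gene H2bc1 at 0.124 FPKM, and H2ac1 was listed at 0 in all libraries.

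**Figure D1:**
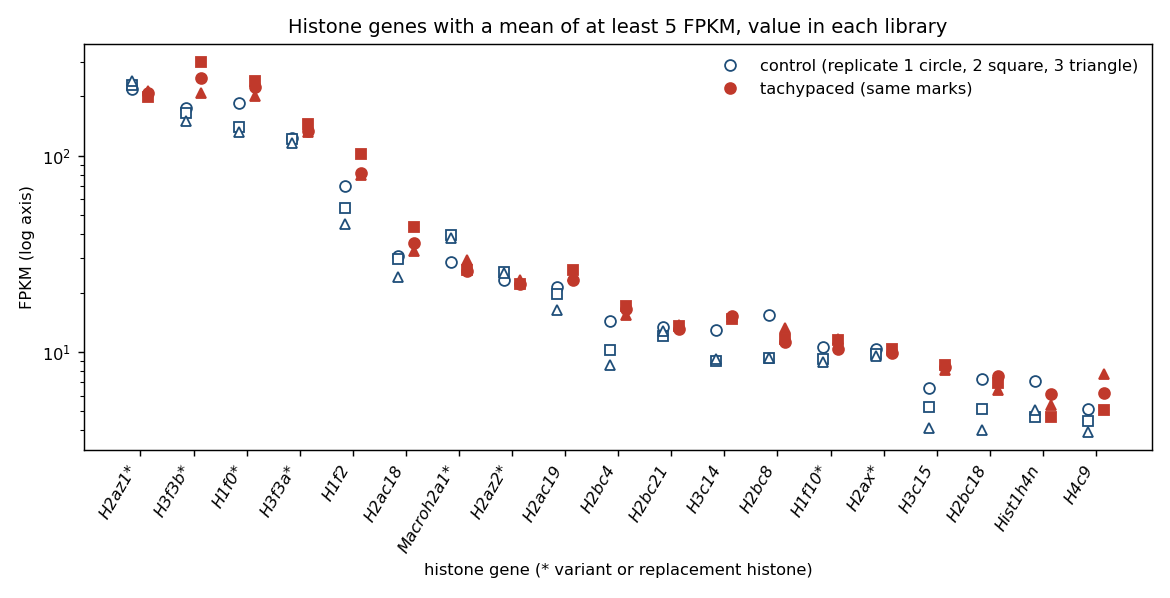
FPKM on a log axis in each of the 6 libraries (open marks control, filled marks tachypaced, with circle, square and triangle for replicates 1, 2 and 3) for histone genes that averaged 5 FPKM or more, where an asterisk marks a variant or replacement gene. The tachypaced marks of H3f3b, H1f0, H1f2, H3c14 and H3c15 all lie above their control marks, those of H2az1 all lie below, and those of H2ax are mixed.

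Most of the FPKM listed for H3 genes was that of H3.3, in libraries whose capture of mRNA without a tail was not tested. Of the summed FPKM of the H3 genes taken by the name rule, H3f3a and H3f3b held 91.0% ± 0.734 in control and 91.1% ± 1.005 in tachypaced libraries. That sum leaves out Cenpa, the centromere H3 variant, at 65.4 ± 3.83 FPKM in control and 48.0 ± 1.99 in tachypaced libraries. The 12 replication-dependent H3 genes, whose proteins are H3.1 and H3.2, summed to 27.9 ± 3.94 and 37.7 ± 0.424 FPKM. Both sources were higher in the tachypaced libraries, at ratios of 1.37 for H3.3 and 1.35 for the replication-dependent genes. The share of that sum held by H3.3 overlapped between the groups. With Cenpa, which was lower in the tachypaced libraries, the share would be smaller in both groups and was not computed.

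Of the 35 tested genes, 5 rose after tachypacing and 0 fell, by limma with Benjamini-Hochberg adjustment over all 10361 genes tested. Over all genes 238 rose (2.30%) and 334 fell (3.22%). At an unadjusted p under 0.05, 12 histone genes were higher and 2 lower, where 10.8% of all genes were higher and 19.4% lower. The 5 that rose were H3f3b, H1f0, H1f2 and the H3.2 genes H3c14 and H3c15, that is 3 of 27 replication-dependent and 2 of 8 variant genes. Every tachypaced library was above every control library in 9 histone genes (12.6% of all genes tested) and below in 2 (22.4% of all), while 24 overlapped. Since the family was chosen from this contrast, nothing is read from these counts against the background.

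Of the calls, H1f0 belongs to the linker class, whose proteins bind where DNA enters and leaves the nucleosome. H1f0 was at 185, 139 and 132 FPKM in control replicates 1, 2 and 3 and at 223, 238 and 201 in tachypaced replicates 1, 2 and 3. Control replicate 1 was the highest control, and still below every tachypaced library. The fitted difference, on the log2(FPKM + 1) scale that compresses changes of low genes, was 0.54 (SE 0.12, adjusted p = 0.0448), and the ratio of mean FPKM was 1.45. H1f2 was at 70.4, 54.2 and 44.6 FPKM in control and 81.8, 101.4 and 79.9 in tachypaced libraries. These groups did not overlap either, and control replicate 1 was again the highest control. The log2 difference of H1f2 was 0.65 (SE 0.15, adjusted p = 0.0473), with a ratio of means of 1.56. The linker variant H1f10 (9.60 ± 0.894 against 11.2 ± 0.721 FPKM) overlapped between the groups and had a log2 difference of 0.20 (adjusted p = 0.131). The 4 remaining replication-dependent H1 genes were below 1 FPKM.

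Among the H3 genes, H3f3b codes for H3.3, the form laid down where nucleosomes turn over outside replication. Its FPKM was 175, 164 and 151 in the control and 248, 298 and 209 in the tachypaced libraries. The tachypaced values were spread more widely, and all lay above the controls. The log2 difference was 0.61 (SE 0.12, adjusted p = 0.0435), and the ratio of means was 1.54. H3f3a codes for the same protein and was at 122, 121 and 115 FPKM in control and 134, 144 and 132 in tachypaced libraries. Its groups were apart as well, by a smaller amount, with a log2 difference of 0.19 that did not pass the threshold (adjusted p = 0.0661). The difference between the 2 genes' changes was not tested.

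H3c14 and H3c15 code for H3.2, an H3 that is laid down during replication, and lie in the small histone cluster of chromosome 3. H3c14 was at 12.9, 9.04 and 9.25 FPKM in control and at 15.2, 14.8 and 15.1 in tachypaced libraries (log2 difference 0.51, SE 0.12, adjusted p = 0.0459). H3c15 was at 6.55, 5.22 and 4.12 in control and 8.43, 8.64 and 8.11 in tachypaced libraries (0.59, SE 0.13, adjusted p = 0.0435). In both genes the tachypaced libraries were close together and above all controls. Every 50-base stretch of the H3c14 model (100%) and 63.5% of those of H3c15 also occur in another gene's transcripts. The genes they share with include each other, H3c13, H3 genes of chromosome 13 and Gm20634, so the split of reads among all of these is uncertain. Summed with a further copy, H3c13, the level was 23.6, 17.4 and 16.4 FPKM in control and 27.3, 29.0 and 27.5 in tachypaced libraries, a ratio of means of 1.46 with no overlap. Sharing with genes outside this sum remains. The other tested H3 genes, H3c13, H3c4, H3c8, H3c10 and H3c11, had means of 1.37 to 3.96 FPKM, and none passed the test.

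The H2A genes H2ac18 and H2ac19, which code for canonical H2A next to these H3 genes, were higher without passing the threshold. H2ac18 was at 30.7, 29.8 and 24.0 FPKM in control and 36.0, 43.1 and 32.9 in tachypaced libraries (log2 difference 0.39, adjusted p = 0.0684). H2ac19 was at 21.6, 19.7 and 16.3 against 23.4, 26.3 and 24.4 (0.35, adjusted p = 0.0599). The groups did not overlap in either gene, but 89.4% and 100% of their 50-base stretches are shared with other genes. Their sum was 47.3 ± 6.23 FPKM in control and 62.0 ± 6.47 in tachypaced libraries.

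The H2B gene H2bc4 had the widest difference of its family among genes above 5 FPKM. It was at 14.4, 10.3 and 8.60 FPKM in control and 16.5, 17.1 and 15.5 in tachypaced libraries, without overlap (log2 difference 0.55, adjusted p = 0.0582). By contrast H2bc21 was at 12.8 ± 0.713 and 13.5 ± 0.331 FPKM (0.07, adjusted p = 0.476), with overlap. H2bc8 was at 15.5, 9.35 and 9.28 FPKM in control and 11.3, 11.7 and 13.2 in tachypaced libraries (0.11, adjusted p = 0.677), and control replicate 1 was its highest library of all 6. Of 50-base stretches, 30.1% in H2bc4, 49.7% in H2bc8 and 0% in H2bc21 also occur in other genes. Hist1h2bq and Hist1h2br, summed because they share sequence, were at 6.88, 2.59 and 2.95 FPKM in control and 6.98, 5.13 and 6.72 in tachypaced libraries, where control replicate 1 lay among the tachypaced values.

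Of the 5 tested H4 genes 4 had a positive log2 difference and 0 passed the adjusted threshold. At an unadjusted p under 0.05 (limma) 1 was higher, H4c9, where 10.8% of all genes tested were. H4c9 was at 4.51 ± 0.601 FPKM in control and 6.33 ± 1.33 in tachypaced libraries (0.40, adjusted p = 0.0905). The highest H4 gene, Hist1h4n, was at 5.63 ± 1.34 and 5.39 ± 0.696 FPKM (-0.04, adjusted p = 0.865). Both overlapped between the groups. Of their 50-base stretches, 28.9% in H4c9 and 85.6% in Hist1h4n also occur in other H4 genes, so their levels and rank depend on how reads were split.

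Of the 4 tested variant H2A genes 3 had a negative log2 difference, and 0 passed the threshold. H2az1 and Macroh2a1 were lower at an unadjusted p under 0.05 (limma), where 19.4% of all genes tested were. H2az1 codes for H2A.Z, a variant of promoters and enhancers that is needed for development. H2az1 was at 218, 230 and 240 FPKM in control and 207, 197 and 213 in tachypaced libraries, so that all tachypaced values were lower (log2 difference -0.15, adjusted p = 0.106). The second H2A.Z gene, H2az2, was at 23.3, 25.5 and 25.3 FPKM in control and 22.1, 22.1 and 23.3 in tachypaced libraries (-0.13, adjusted p = 0.184). Its groups only just did not overlap, with control replicate 1 at 23.340 and tachypaced replicate 3 at 23.336 FPKM. Macroh2a1 codes for macroH2A1, which carries a large extra domain and is enriched on silent chromatin, and was at 28.9, 39.5 and 37.9 FPKM in control and 25.9, 26.2 and 29.3 in tachypaced libraries. Control replicate 1 lay within the tachypaced range (-0.36, adjusted p = 0.0754). H2ax, whose protein is phosphorylated at DNA breaks, was at 9.92 ± 0.461 and 10.1 ± 0.223 FPKM (0.03, adjusted p = 0.796). The 5 H2A variants of the name rule summed to 299 ± 16.5 FPKM in control and 266 ± 9.57 in tachypaced libraries, a ratio of 0.888. The variant H1 and H3 sums of that rule had ratios of 1.43 and 1.37. Most of the H2A sum was H2az1, at 229 ± 10.8 and 206 ± 7.70 FPKM. It leaves out the replacement H2A gene H2aj, outside the rule, at 85.7 FPKM in control and 86.9 in tachypaced libraries.

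**Figure D2:**
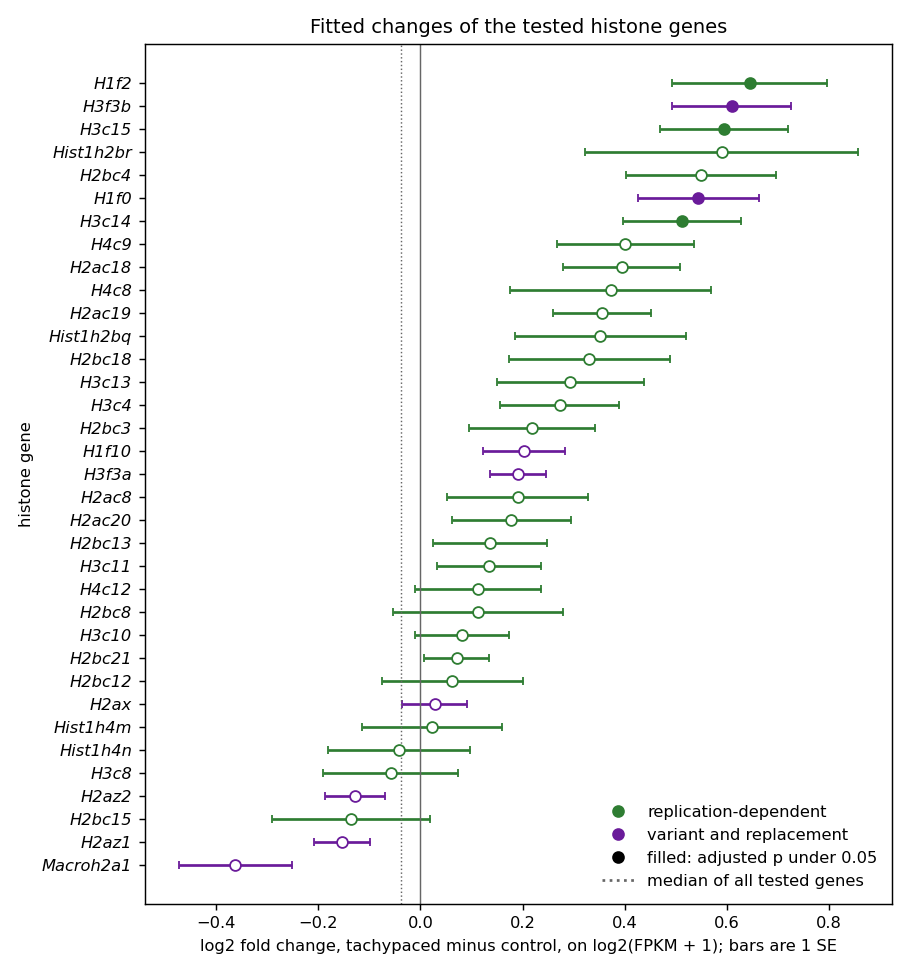
Fitted log2 differences (tachypaced minus control, on log2(FPKM + 1)) of the 35 tested histone genes, with bars of 1 SE, coloured by class, filled where the adjusted p is under 0.05, and with the median of all tested genes as a dotted line. The 5 filled points, H1f2, H3f3b, H3c15, H1f0 and H3c14, lie between 0.51 and 0.65, and Macroh2a1 lies lowest at -0.36.

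As a class, the replication-dependent genes had a positive log2 difference in 24 of 27 tested genes, with a median of 0.22, where the median of all genes tested was -0.04. Under the other scalings 23 to 25 of the 27 were positive. In 17 of the 27, over 50% of the 50-base stretches also occur in other genes, so these signs are not all separate measurements. Their sum was 260, 207 and 185 FPKM in control replicates 1, 2 and 3 and 279, 308 and 279 in the tachypaced replicates, a ratio of means of 1.33 without overlap. The tested variant genes had a median of 0.11 with 5 of 8 positive. Both gene clusters had higher sums after tachypacing. The 51 genes of the chromosome 13 cluster (chr13:21715763-23764406, GRCm38) summed to 131 ± 27.3 FPKM in control and 176 ± 9.88 in tachypaced libraries (ratio 1.35), and the 10 genes of the chromosome 3 cluster (chr3:96219865-96270132) to 86.5 ± 11.7 and 113 ± 7.47 (ratio 1.30). On chromosome 13, control replicate 1 (161 FPKM) came close to the lowest tachypaced library (169). Much of that cluster's sum was H1f2 alone, at means of 56.4 FPKM in control and 87.7 in tachypaced libraries. The chromosome 13 sum therefore does not show a rise shared by its 51 genes. Neither it nor the class sum, which also holds H1f2, was computed without this gene. Of the 19 tested genes of the cluster, 16 had a positive log2 difference, with a median of 0.14. Of the tested genes, 1 of 19 on chromosome 13 rose, and 2 of 8 on chromosome 3, H3c14 and H3c15, which share sequence. Over all genes tested 2.30% rose, and the difference between the clusters was not tested.

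The 3 replication-dependent genes that rose all have an annotated transcript that runs more than 100 bases past the stem-loop. Of the 21 genes of this kind 7 were tested, all 7 had a positive log2 difference, with a median of 0.40. Of the 23 genes that end within 100 bases of it 9 were tested, 7 were positive and 0 were called, with a median of 0.18. Of the 9, H2ac18 and H2ac19 were higher at an unadjusted p under 0.05 (limma), where 10.8% of all genes tested were. Among the 16 unspliced genes in which no stem-loop was found, 8 were tested, with a median of 0.12. Several of these models are short (312 bases for H4c12, 411 for H3c10), with little or no sequence past the coding part to search. This kind therefore partly describes the annotation and not the genes. The 3 spliced genes without one, H2bc4, Hist1h2bq and Hist1h2br, had log2 differences of 0.55, 0.35 and 0.59. In the order given, the kinds had median levels of 0.767, 0.839, 1.07 and 3.32 FPKM, and their ranges overlapped. The kinds were compared after the calls were known and their difference was not tested.

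**Figure D3:**
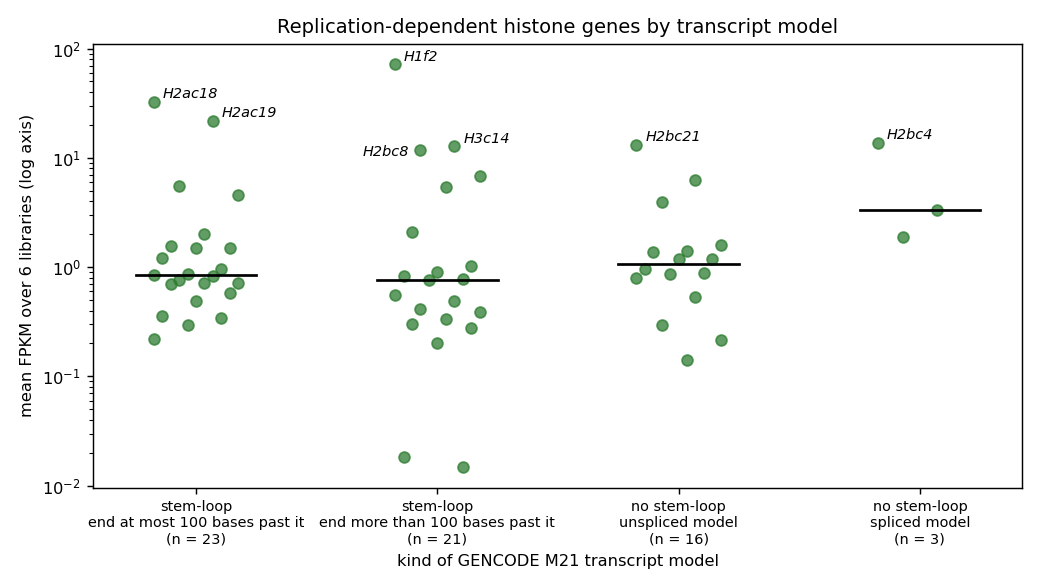
Mean FPKM over the 6 libraries (log axis) of the 63 replication-dependent genes, a point each, by kind of annotated transcript, with the median of each kind as a bar. The kinds overlap in level, with H1f2 highest at 72.0 FPKM and medians of 0.839, 0.767, 1.07 and 3.32 FPKM from left to right.

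Promoters were read from RefSeq on GRCm38.p6, which matched 58 of the 63 replication-dependent and 8 of the 9 variant genes, and letters were searched on both strands in the 250 bases before the first listed start. CCAAT was found in 47 of 58 replication-dependent genes and in 34.5% of all 27025 promoters. By family it was in 16 of 16 H2A, 15 of 15 H2B, 5 of 5 H1, 8 of 10 H3 and 3 of 12 H4 promoters. TATAAA was found in 27 of 58 (12.97% of all promoters). The octamer ATTTGCAT, known from H2B promoters, was in 10 of 58, 5 H2A and 5 H2B genes (1.61% of all). The H1 box AAACACA was in 4 of 5 H1 promoters and in 6 of 58 in all (6.22% of all promoters). GGGCGG was in 19 of 58 (32.9% of all), and TTTGGCGC in 0 of 58 (0.437% of all). The 120 bases before the first listed RefSeq start of H1f2, H3c14, H3f3b and H1f0, which rose, are printed with the letters searched for in capitals.
H1f2: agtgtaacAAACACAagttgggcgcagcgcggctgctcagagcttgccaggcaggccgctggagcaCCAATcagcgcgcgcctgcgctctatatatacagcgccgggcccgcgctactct
H3c14: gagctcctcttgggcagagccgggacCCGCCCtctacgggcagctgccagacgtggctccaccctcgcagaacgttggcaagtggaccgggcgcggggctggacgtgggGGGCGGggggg
H3f3b: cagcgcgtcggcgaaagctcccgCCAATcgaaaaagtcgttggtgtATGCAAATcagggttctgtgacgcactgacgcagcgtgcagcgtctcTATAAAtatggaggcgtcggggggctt
H1f0: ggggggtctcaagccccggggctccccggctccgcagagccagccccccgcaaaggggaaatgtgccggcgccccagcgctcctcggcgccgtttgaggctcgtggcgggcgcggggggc
They are chr13:23738687-23738806 (+ strand) for H1f2, chr3:96246565-96246684 (+) for H3c14, chr11:116024505-116024624 (-) for H3f3b and chr15:79028092-79028211 (+) for H1f0. The H1f2 stretch holds the H1 box and CCAAT, and that of H3c14 holds GGGCGG on both strands. The H3f3b stretch holds CCAAT, the octamer on the other strand and TATAAA, and in that of H1f0 none of the letters occur. The H1f0 stretch ends at 79028211, but the GENCODE model starts at 79028450, and the bases between were not searched. For H3f3b the RefSeq start lies inside the GENCODE gene, which reaches 116027962. A match is a description of the letters and not a bound site.

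None of the genes that process histone mRNA passed the test. Of 17 on the list, 15 were tested, 0 rose and 0 fell, 4 had a positive log2 difference and the median was -0.11. At an unadjusted p under 0.05 there were 0 higher and 4 lower (limma), where 10.8% of all genes tested were higher and 19.4% lower. Slbp, the stem-loop binding protein, was at 16.7, 19.2 and 20.6 FPKM in control and 17.4, 15.5 and 17.6 in tachypaced libraries, with overlap (-0.15, adjusted p = 0.260). Npat, the coactivator that switches histone genes on at S phase entry, was at 10.3 ± 0.518 and 9.98 ± 0.599 FPKM (adjusted p = 0.729). Casp8ap2, which organises the histone locus body with it, was at 3.28 ± 0.133 and 2.81 ± 0.115 FPKM (adjusted p = 0.170). Lsm10 and Lsm11, subunits of the U7 particle that directs the cleavage, had log2 differences of 0.25 and -0.07, and Zfp473 was below 1 FPKM. The exonuclease Eri1 and the helicase Upf1, which take part in histone mRNA decay, had log2 differences of -0.13 and -0.03 (adjusted p = 0.231 and 0.775).

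The histone chaperones carry new histones to DNA. Of 27 symbols 25 were in the table and tested, 0 rose, 2 fell and 2 had a positive log2 difference, with a median of -0.11. Over all genes tested 2.30% rose and 3.22% fell. Ssrp1, a subunit of the FACT complex that handles H2A and H2B, fell from 41.2, 56.8 and 62.2 FPKM in control to 34.6, 34.8 and 37.7 in tachypaced libraries (log2 difference -0.55, adjusted p = 0.0478). Hjurp, the chaperone of the centromere histone, fell from 35.9 ± 3.34 to 27.8 ± 1.96 FPKM (-0.35, adjusted p = 0.0458). The groups did not overlap in either gene, and control replicate 1 was the control nearest to the tachypaced libraries in both. The chaperones of replication, Asf1b (10.1 ± 2.34 and 7.05 ± 0.625 FPKM), Chaf1a (6.79 ± 0.778 and 5.14 ± 0.283), Chaf1b (9.44 ± 1.20 and 8.99 ± 0.719) and Nasp (15.9 ± 1.96 and 12.5 ± 0.603), had negative log2 differences that did not pass the threshold, while Asf1a had 0.15. The H3.3 chaperones Hira (8.48 ± 0.818 and 7.07 ± 0.731 FPKM), Daxx (9.56 ± 0.589 and 8.62 ± 0.304) and Atrx (23.4 ± 1.80 and 20.8 ± 1.42) had adjusted p of 0.130, 0.221 and 0.180.

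Of the 28 S phase genes, all tested, 0 rose and 7 fell, where 2.30% of all genes rose and 3.22% fell. In this list 0 had a positive log2 difference, with a median of -0.33. With median of ratios scaling or quantile normalization 3 of the 28 had a positive difference. The 7 were Tk1, Rrm1, Rrm2, Ccna2, Dnmt1, Uhrf1 and Prim2, which make nucleotides, drive S phase, keep DNA methylation and prime synthesis. Rrm1, a ribonucleotide reductase subunit, was at 23.5, 29.3 and 33.4 FPKM in control and 17.2, 17.5 and 20.4 in tachypaced libraries (-0.61, adjusted p = 0.0435). Ccna2, the S phase cyclin, was at 29.8 ± 4.65 and 19.3 ± 1.64 FPKM (-0.59, adjusted p = 0.0435). The replication clamp Pcna was at 257 ± 47.0 and 196 ± 3.17 FPKM without passing the threshold (-0.38, adjusted p = 0.0716), and the helicase subunit Mcm2 was at 23.0 ± 0.756 and 21.2 ± 1.31 (-0.11, adjusted p = 0.254). Cyclins Ccne1 and Ccne2 had log2 differences of -0.03 and -0.36 (adjusted p = 0.727 and 0.0820). So the replication-dependent histone genes, with 24 of 27 positive, and the S phase genes, with 0 of 28, lay mostly on opposite sides of 0 in these libraries. Because many of the histone genes share sequence, the 27 are not separate measurements.

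**Figure D4:**
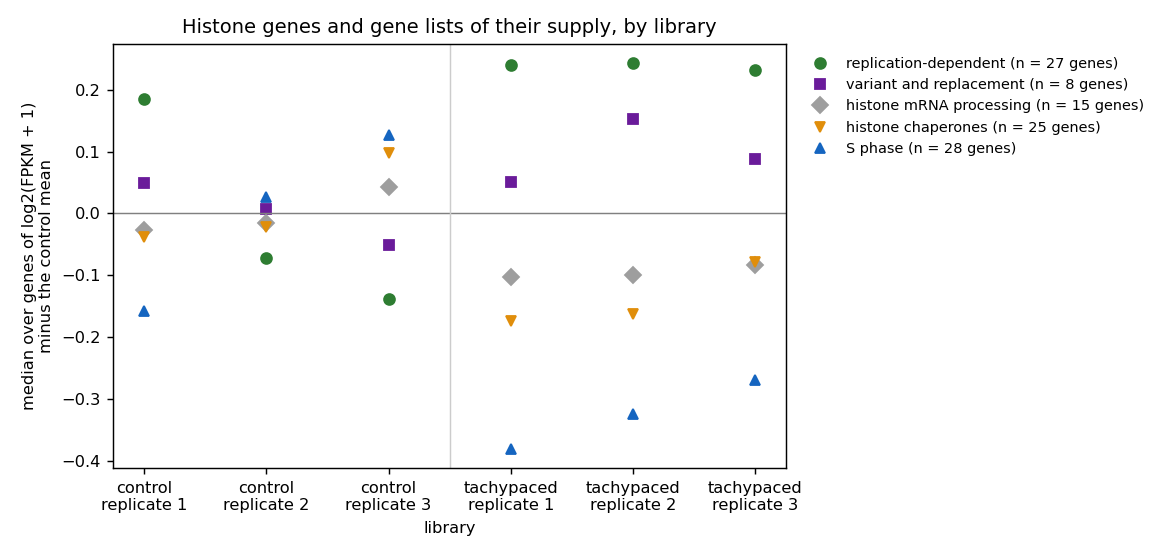
Median over genes of log2(FPKM + 1) minus the control mean, in each of the 6 libraries, for the replication-dependent and variant histone genes and for the lists of histone mRNA processing, histone chaperone and S phase genes. The replication-dependent genes sit at 0.23 to 0.24 in all tachypaced libraries and at 0.19 in control replicate 1, against -0.07 and -0.14 in the other controls, and the S phase genes run the other way.

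Control replicate 1 lay toward the tachypaced libraries in both sets. It was the highest control in 23 of the 29 tested histone genes with a positive log2 difference, and the lowest control in 22 of 28 S phase genes. Its part was examined by leaving it out. Without it 16 histone genes rose (12 replication-dependent and 4 variant, with 11.2% of all genes called higher) and 3 fell, H2az1, H2az2 and Macroh2a1 (18.8% of all called lower), and 0 processing, 0 chaperone and 0 S phase genes rose while 5, 7 and 19 fell. Without control replicate 2 or 3, or without tachypaced replicate 1 or 2, 0 of the 5 calls held, and without tachypaced replicate 3 only H3f3b did (by limma, with 9 to 13 histone genes higher and 1 or 2 lower at an unadjusted p under 0.05, where 763 to 960 of all 10361 genes were higher and 1196 to 1781 lower). Without any of these 5 libraries 0 S phase and 0 chaperone genes passed. The 5 genes kept a positive log2 difference in all 16 alternatives run, from 0.43 to 0.81, with adjusted p from 0.000441 to 0.174.

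The rise of the 5 genes went with other differences between the groups. The summed macrophage markers were higher in every tachypaced library, and 2 of the 9 tested rose, where 2.30% of all genes did. The lysozyme gene Lyz2 was among them (358 ± 46.4 and 504 ± 33.3 FPKM, log2 difference 0.50, limma adjusted p = 0.0435). The mitochondrial share was higher too, as given above. The part of the markers and of the mitochondrial share in the histone differences was not tested. The deposited values do not say on which strand reads were counted. On GRCm38 the models of H1f0, H3f3a, H2ac18 and H2ac19 overlap genes of the opposite strand (among them Gm49544, H3f3aos, Gm20633 and Gm20632). Among the tested genes, so do those of Macroh2a1, H2ax, H1f10, H3c13, H2bc18, H2ac20 and H2ac8. The models of H2ac18 and H3c14 both overlap Gm20634 on their own strand. On their own strand too, H1f10 overlaps Gm47286 and H2bc18 overlaps Gm42743. Reads of these histone genes may therefore be divided with the genes they overlap. Of the H1f2, H3f3b and H1f0 models, 8.54%, 8.40% and 0% of 50-base stretches occur in other genes.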

How the data were processed

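The 3 control and 3 tachypaced libraries were prepared from total RNA with a SMARTER mRNA kit, per the labels' protocols. The authors deposited 1 table of FPKM values, with 23060 named rows, 7068 of them at 0 in all 6 libraries. Per the submitters' processing notes, the build was GRCm38 (mm10). Not given in the sources used here are the aligner, quantifier, annotation and strand. FPKM depends on how reads of near-identical genes were divided, which matters for histone copies. Ratios of low values between libraries gathered on no step (no log2 bin of 0.05 held more than 5.42%), so depth is unknown, and no interval or floor is given.

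The 10361 genes that averaged 1 FPKM or more were tested on log2(FPKM + 1) with limma 3.58.1 in R 4.3.3 (lmFit, eBayes with trend, two-sided, no covariates), with Benjamini-Hochberg adjustment over all genes and a threshold of 0.05. The steps were tested on simulated data in which each gene was drawn independently. Shifts that many genes of a library share, as seen in control replicate 1, were not simulated, so that test does not bear on the calls here. With 3 libraries a group, no exact permutation p can be below 0.1, so none was used. Members, classes and gene lists were chosen with earlier results of these data known. Every histone gene of at least 1 FPKM could be named, as could called members (up to 4 with the largest change) and set core members of the lists. Of the S phase list's called genes, those beyond this rule are only listed by name. Genes were matched by symbol to GENCODE M21 (77 of 77), and 71 had a promoter in the RefSeq table. Stem-loops and promoter letters were searched with Python 3.11.15, numpy 2.4.6 and pandas 2.3.3, and figures drawn with matplotlib 3.10.9.

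Alternatives were another pseudocount (0.1), 2 other filters, 4 other scalings, limma without trend or robust, a replicate block and fits without each library.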

Additional observations from a re-analysis of the deposited data

How the results depend on the processing

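The count of histone genes that rose (5) was 0 without a filter on low values, 0 with quantile normalization and 0 in limma without the trend, and 0 to 16 when a library was left out. The count that fell (0) was 1 with a common total per library, and 0 to 3 when a library was left out. Over all genes, the 238 that rose were 0 without a filter, 13 with quantile normalization, 2 without the trend and 1 to 1162 when a library was left out. The 334 that fell were 0, 4, 0 and 0 to 1947 in the same order, 180 with median of ratios scaling, 924 with a common total and 625 with a total that leaves out mitochondrial and histone rows. The median log2 difference of the replication-dependent genes (0.22) was 0.39 with a minimum of 5 FPKM, where fewer genes are tested, 0.11 without a filter, where more are, and 0.34 with a pseudocount of 0.1 or without control replicate 1. Their summed ratio (1.33) ran from 1.24 without control replicate 3 to 1.48 without control replicate 1. The variant median (0.11) ran from 0.072 with a common total to 0.15 with median of ratios scaling. Both moved by less than the SD among the control libraries, which control replicate 1 widens. The cause of the lost calls was not tested.

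Same-numbered control and tachypaced libraries had deviations that correlated at 0.0615, -0.0340 and 0.157. Those with different numbers correlated at -0.156 to 0.0811. With 3 libraries a group these values cannot decide whether the numbers pair the libraries. With the replicate number as a block, 7 histone genes rose and 1, Macroh2a1, fell, 334 genes rose and 591 fell in all, and 13 S phase and 4 chaperone genes fell.

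Genes that turned were near 0 and uncalled in the reported values. With a library left out, H4c12 ranged from -0.0052 to 0.19, H3c8 from -0.18 to 0.031, Hist1h4n from -0.14 to 0.12, Hist1h4m from -0.092 to 0.13, H2bc8 from -0.0019 to 0.34 and H2bc12 from -0.038 to 0.24. With a common total, H2ax was at -0.0077 and Hist1h4m at -0.0031, and with quantile normalization Hist1h4n was at 0.0041. Unknown depth limits genes near 1 FPKM most.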

Other observations

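Outside the name rule, 28 further rows have histone gene names, of which 23 were listed at 0 in all libraries and 3 were tested. Cenpa, the H3 variant that marks the centromere, fell from 65.4 ± 3.83 FPKM in control to 48.0 ± 1.99 in tachypaced libraries (n = 3 each, log2 difference -0.44, SE 0.06, limma adjusted p = 0.0435), without overlap between the groups. Its direction was that of its chaperone Hjurp and of the S phase genes. The replacement H2A gene H2aj was at 85.7 and 86.9 FPKM (0.02), and its mean over the 6 libraries, 86.3 FPKM, was above the 72.0 of H1f2. These genes were chosen after their values were seen.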
